A study of Mus musculus with 12 samples.

Results

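Liver RNA of mice treated with KSL0608-Se was compared with liver RNA of young control mice, in 4 libraries of each. The comparison covers every gene with a mean level of at least 1 TPM over the 12 libraries of the series, which held for 10883 of the 55903 genes in the deposited table. TPM, the unit of the table, is a level per unit of transcript length, scaled so that each library sums to the same total. The young control libraries are described as control and have the condition young. The treated libraries are titled KSL0608-Se-treated and described as doxo-KSL0608-Se, which names the compound together with doxo, taken to mean doxorubicin, a chemotherapy agent that damages DNA. The remaining 4 libraries are titled aged control, have the condition aged and are described as doxo. They are called aged/doxo here and served to estimate the spread and to place the treated values. The title of the series concerns light-activated removal of senescent cells, and KSL0608-Se is known here by that code name alone. By their labels the treated and the control mice differ in doxo and in the compound, and possibly in age, and these contributions cannot be told apart. The labels used here give no strain, sex, dose, route, time or illumination, and they do not say how mice map to libraries, so p-values rest on the spread among libraries, and that spread may be technical.

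Doxorubicin breaks DNA, and broken DNA stabilises the transcription factor p53, which switches on genes that stop the cell cycle, repair DNA, restrain growth signals and promote cell death. Detoxification genes of the liver, among them the glutathione S-transferases, respond to oxidants and drugs through the transcription factor NRF2. The major urinary proteins (Mup), small pheromone carriers made in bulk by hepatocytes, respond instead to pulses of growth hormone acting through STAT5, and they take up a large part of the mRNA of a mouse liver.

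Between 9568 and 11023 genes reached 1 TPM in a library. Young control library 1 stood apart from the others of its group: it had the lowest of these numbers and the steepest fall of level with transcript length, with a slope of -0.47 log2 units per log2 unit of transcript length, against -0.35 to -0.25 in the other control libraries and -0.39 to -0.23 in the treated ones. Aged/doxo library 2 stood further apart on the first principal component (-95.6, against -61.7 for young control library 1). Its slope was -0.47, and 27.2% of its TPM came from mitochondrial genes, against 9.76% to 11.4% in the other aged/doxo libraries. Aged/doxo library 2 enters the filter over the 12 libraries, the estimate of the spread and every value of the aged/doxo group below. All 12 hepatocyte markers, among them albumin, were tested, and none differed at an unadjusted p under 0.05. Their summed level was 53352 to 78354 TPM in the control and 70206 to 83831 TPM in the treated libraries. TPM sums to a constant in each library, and the median log2 difference of all genes tested, treated minus control, was 0.23. It was 0.09 without young control library 1 and -0.01 after median-of-ratios scaling. Each difference below, and each count of differences above 0, has to be read against that shift. For example, all 29 tested cholesterol genes and all 27 tested drug-metabolizing P450 genes and receptors had a difference above 0. Of 13 mitochondrially encoded genes 6 were above 0 and 7 below.

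Few genes separated the groups once all genes were corrected for. In limma's fit with Benjamini-Hochberg adjustment, 2 of 10883 genes rose in the treated livers at an adjusted p under 0.05 (0.0184%) and 1 fell (0.00919%). The genes that rose were Phlda3, a p53 target that holds back the kinase Akt, and the long noncoding RNA Gm45941, and the gene that fell was the antisense RNA Gm47551. At an unadjusted p under 0.05, 298 genes were higher (2.74%) and 72 were lower (0.662%). All 4 treated libraries lay above all 4 control libraries in 398 genes (3.66%), and all lay below them in 39 (0.358%). The balance of these counts follows the scaling. Median-of-ratios scaling gave 161 higher and 217 lower at an unadjusted p under 0.05, quantile normalization gave 185 and 183, a total without the 50 most abundant and mitochondrial genes gave 234 and 126, and median centring, added after the data were seen, gave 159 and 220. Single libraries moved them too. The counts were 132 and 56 without young control library 1, but 573 and 88 without control library 2, 434 and 64 without control library 4, 465 and 83 without treated library 1, and 597 and 92 without aged/doxo library 2. They were 148 and 63 without control library 3, 184 and 50 without treated library 2, 181 and 58 without treated library 3, and 163 and 62 without treated library 4. A fit of the 8 compared libraries alone gave 523 and 94.

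**Figure D1:**
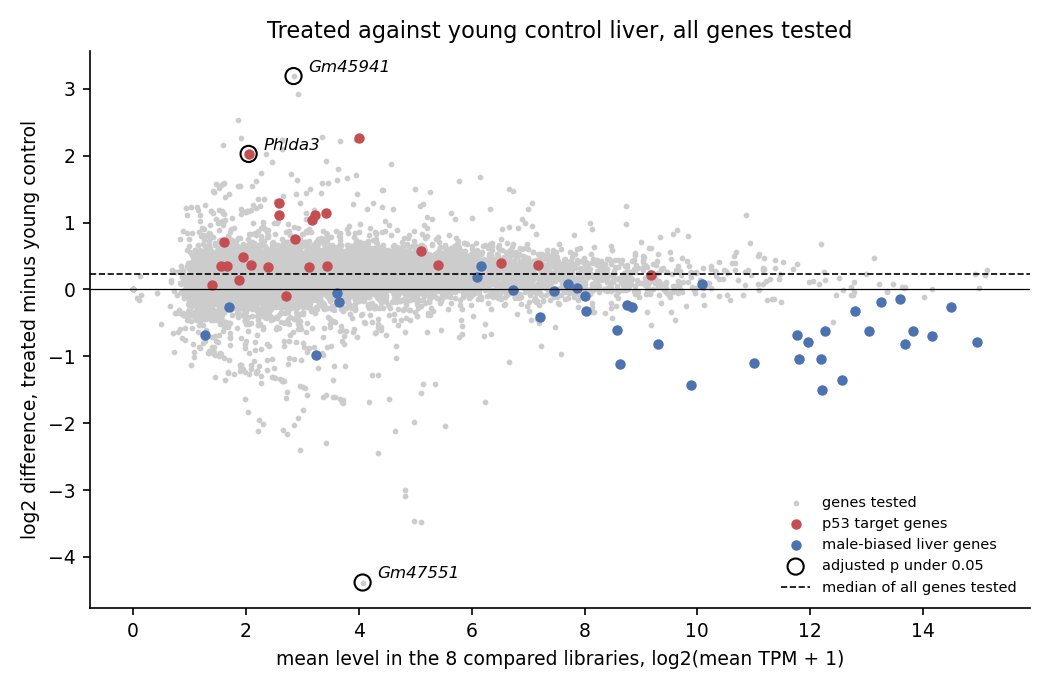
Log2 difference of each gene tested, treated minus young control, against its mean level over the 8 compared libraries on a log2 scale, with 1 grey point per gene. The p53 target genes (red) lie mostly above the dashed median of all genes, 0.23, while many male-biased genes of high level (blue) lie below 0, and circles mark the 3 genes at an adjusted p under 0.05.

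Gm45941 gave the largest rise of the 3. This long intergenic noncoding RNA lies at chr12:27946042-27982234 on the plus strand of GRCm38 (GENCODE M21). It stood at 0.32, 0.33, 0.13 and 0.63 TPM in the control libraries and at 9.56, 16.03, 16.12 and 6.27 TPM in the treated ones. Every treated library was far above every control library. The log2 difference on the log2(TPM + 1) scale was 3.19 (SE 0.32, adjusted p 0.00221), and the mean TPM was 34.0 times that of the control group. In the aged/doxo libraries it stood at 6.77, 4.20, 12.3 and 6.84 TPM, and the treated group differed from them by 0.60 (adjusted p 0.427). No function of Gm45941 is stated here. Its promoter window, 250 bases before to 50 bases after the start in RefSeq on GRCm38.p6 (chr12:27945792-27946091, plus strand), is shown because this gene carries the smallest p of the comparison:
Gm45941: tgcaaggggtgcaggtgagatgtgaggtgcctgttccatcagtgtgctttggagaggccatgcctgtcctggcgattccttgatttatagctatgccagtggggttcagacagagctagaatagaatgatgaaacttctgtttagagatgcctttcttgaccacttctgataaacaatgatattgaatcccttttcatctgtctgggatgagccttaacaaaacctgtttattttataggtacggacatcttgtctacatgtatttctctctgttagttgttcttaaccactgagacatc

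Phlda3 was the p53 target that passed. The gene spans chr1:135766119-135769136 on the plus strand, and its protein competes with Akt for membrane lipids and so dampens survival signalling. Phlda3 stood at 0.60, 0.50, 0.29 and 0.85 TPM in the control libraries and at 5.80, 7.40, 7.30 and 2.32 TPM in the treated ones. The groups did not overlap, and the lowest treated library, number 4, was still above the highest control library. The log2 difference was 2.03 (SE 0.29, adjusted p 0.0418), with a mean TPM 10.2 times that of the control group. This call lies close to the threshold, and it was lost in 18 of the alternative settings, with an adjusted p of 0.0737 after median-of-ratios scaling and 0.132 in a fit of the 8 compared libraries alone. Leaving out any 1 of the control libraries, treated library 1, 2 or 3, or aged/doxo library 1, 3 or 4 also ended it.

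Cdkn1a, which encodes the cell cycle inhibitor p21, and Aen, a p53-induced nuclease of apoptosis, came next by p in that direction and did not pass. Cdkn1a stood at 1.89, 8.89, 3.41 and 5.74 TPM in the control libraries and at 24.4, 27.2, 31.3 and 18.2 TPM in the treated ones. Every treated library was above every control library. Its log2 difference was 2.26 (SE 0.37, adjusted p 0.0987), and the adjusted p was 0.0199 after median-of-ratios scaling and 0.0141 after quantile normalization, but 0.201 in the fit of the 8 libraries alone, 0.574 without control library 3, 0.542 without treated library 2 and 0.658 with the replicate block. Over all alternatives it ran from 0.000878 to 0.658. Aen stood at 5.17, 5.88, 4.89 and 6.83 TPM in the control libraries against 11.8, 14.0, 16.4 and 12.7 TPM in the treated ones, again without overlap. Its log2 difference was 1.14 (SE 0.19, adjusted p 0.0987). Cdkn1a passed when control library 2 was left out, and Aen when aged/doxo library 2 was.

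Of 36 p53 target genes on the list, 35 were in the table and 24 reached the level to be tested. Among these 24, 1 passed at the adjusted threshold, 10 were higher at an unadjusted p under 0.05 and 0 were lower, against 2.74% and 0.662% of all genes tested. All treated libraries lay above all control libraries in 7 of the 24, against 3.66% of all genes. The log2 difference was above 0 in 23 of 24, with a median of 0.38 beside 0.23 for all genes. Without young control library 1 the count at an unadjusted p under 0.05 was 9 (1.21% of all genes), and over the scalings tried it was 8 or 9 (1.46% to 2.15% of all genes). With transcript-length slope as a covariate it was 11 (2.36% of all genes), and 1 member was then lower (1.04% of all genes). The list is of known targets and was drawn up with earlier results of these data known.

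Regulators of p53 and of survival were among the 10. Trp53inp1, a p53 cofactor of stress-induced death, stood at 1.49 to 3.39 TPM in the control and 5.67 to 9.38 TPM in the treated libraries, with a log2 difference of 1.29 (SE 0.30, adjusted p 0.684). Mdm2, the ubiquitin ligase that degrades p53, stood at 2.40 to 7.25 TPM against 6.43 to 9.73 TPM, a difference of 0.75. The Mdm2 groups overlapped by the second control library alone. Bax, which permeabilises mitochondria in apoptosis, stood at 21.1 to 31.6 TPM in the control libraries and 30.9 to 46.8 TPM in the treated ones, and these ranges met. Its difference was 0.57.

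Cell cycle, growth and secreted members made up the rest of the 10. Ccng1, cyclin G1, was at 3.73 to 5.68 TPM in the control and at 9.49 to 14.5 TPM in the treated libraries, a log2 difference of 1.11 with no overlap. Plk2, a polo-like kinase induced by stress, was at 1.45 to 4.56 TPM against 5.06 to 8.90 TPM, also 1.11 and without overlap. Sesn2, a sestrin that restrains the growth kinase mTORC1, was at 0.99 to 1.65 TPM against 2.08 to 3.96 TPM, a difference of 0.70 without overlap. Gdf15, a circulating stress hormone, was at 3.32 to 6.35 TPM against 6.04 to 17.7 TPM, a difference of 1.03, and treated library 4 lay within the control range. None of these passed the adjusted threshold (adjusted p 0.687 for Plk2 and 0.734 for Ccng1, Sesn2, Gdf15, Mdm2 and Bax). Plk3 was the member with a difference below 0, at -0.09 (adjusted p 0.909).

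**Figure D2:**
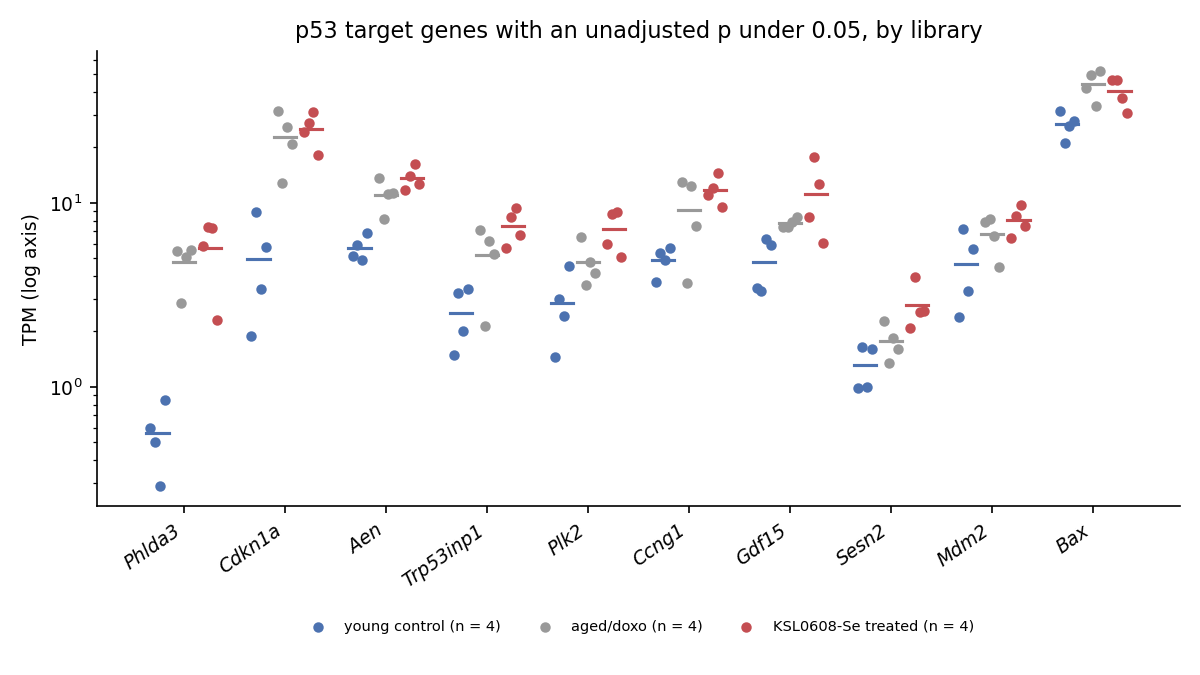
Levels in TPM on a log axis of the 10 p53 target genes with an unadjusted p under 0.05, with 1 point per library and a line at each group mean, 4 libraries per group. In Phlda3, Cdkn1a, Aen, Trp53inp1, Plk2, Ccng1 and Sesn2 all treated libraries (red) lie above all control libraries (blue), and in Gdf15, Mdm2 and Bax they overlap; grey points are aged/doxo.

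The 11 listed targets under the tested level include receptor genes. Eda2r, the ectodysplasin A2 receptor, stood at 0.01, 0.01, 0.07 and 0.03 TPM in the control libraries and at 0.52, 0.76, 0.78 and 0.33 TPM in the treated ones. Tnfrsf10b, the TRAIL receptor, stood at 0.05, 0.13, 0.06 and 0.07 TPM against 0.28, 0.24, 0.39 and 0.29 TPM. In both, every treated library was above every control library. These 2 genes were chosen after their values were seen and were not tested, and the depth behind levels this low is unknown.

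Promoter windows of the p53 targets were searched for the p53 core element, the 10-base unit that occurs in pairs in a full p53 response element and which reads the same on both strands. It occurred in 8.36% of the 32851 RefSeq windows of 300 bases, and in 8.39% of the tested genes that have a window. Of the 24 tested p53 targets 21 matched a window, and 9 of them (42.9%) held the motif in at least 1 window. The list is of known p53 targets and the windows hold no values from these livers, so this share is not a result of the comparison. A match is a description of letters and not a site shown to be bound. The windows of Cdkn1a (chr17:29090729-29091028, plus strand), Aen (chr7:78895808-78896107, plus strand) and Ccng1 (chr11:40755237-40755536, minus strand) are shown as 3 members without overlap that hold it, beside Phlda3 (chr1:135765835-135766134, plus strand), which passed the test and has no whole match in this window. The Phlda3 window ends in the letters gaacatgt, which match the beginning of the element and are cut off by the window edge. Whether a whole element follows there was not examined. Capitals mark the core element, and Cdkn1a has 2:
Cdkn1a: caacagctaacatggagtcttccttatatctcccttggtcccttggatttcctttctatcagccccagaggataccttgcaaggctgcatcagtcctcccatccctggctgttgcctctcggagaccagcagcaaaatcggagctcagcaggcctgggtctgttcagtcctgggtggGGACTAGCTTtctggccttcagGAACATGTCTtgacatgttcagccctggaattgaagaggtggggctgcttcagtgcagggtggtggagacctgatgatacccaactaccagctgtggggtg
Aen: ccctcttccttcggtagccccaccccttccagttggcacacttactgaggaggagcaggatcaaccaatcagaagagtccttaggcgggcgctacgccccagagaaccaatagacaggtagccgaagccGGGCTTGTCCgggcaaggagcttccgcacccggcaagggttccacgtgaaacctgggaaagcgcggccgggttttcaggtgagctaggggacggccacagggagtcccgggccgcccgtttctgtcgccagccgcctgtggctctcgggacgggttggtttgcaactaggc
Ccng1: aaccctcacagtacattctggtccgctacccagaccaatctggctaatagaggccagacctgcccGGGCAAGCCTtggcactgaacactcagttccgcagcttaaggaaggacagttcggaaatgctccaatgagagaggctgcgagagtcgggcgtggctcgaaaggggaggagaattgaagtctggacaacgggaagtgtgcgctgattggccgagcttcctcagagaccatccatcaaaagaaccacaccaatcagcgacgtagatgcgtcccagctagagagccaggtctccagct
Phlda3: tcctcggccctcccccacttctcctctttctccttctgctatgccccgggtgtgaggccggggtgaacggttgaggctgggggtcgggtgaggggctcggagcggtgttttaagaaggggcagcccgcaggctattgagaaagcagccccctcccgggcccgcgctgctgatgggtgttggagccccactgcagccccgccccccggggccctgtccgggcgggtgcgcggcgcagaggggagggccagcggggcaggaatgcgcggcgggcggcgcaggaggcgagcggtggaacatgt

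Other lists tied to cell fate were short and held 0 or 1 member at an unadjusted p under 0.05, beside 2.74% of all genes higher and 0.662% lower. Counts this small cannot show a lack of response. Of 8 tested BCL2 family genes, the balance of survival and death proteins that senolytic compounds often target, none passed and 0 were at an unadjusted p under 0.05. All 8 BCL2 family differences were above 0, between 0.14 and 0.48, with a median of 0.31 beside 0.23 for all genes. Among 13 tested DNA repair genes the count was likewise 0, and among 11 cell cycle genes 1 was higher at an unadjusted p under 0.05 (9.09%).

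Senescence markers and secreted factors of the senescence-associated secretory phenotype were mostly scarce in these livers. Of 30 listed genes 14 reached the tested level. In limma's fit 0 of these passed and 0 were at an unadjusted p under 0.05, beside 2.74% of all genes higher and 0.662% lower. A fit of the 8 compared libraries alone gave 1 higher (4.81% of all genes). Cdkn1a and Gdf15, described above, were counted among the p53 targets and are not on this list, so its counts leave them out. The median log2 difference was 0.23, beside 0.23 for all genes tested. The 4 with the smallest p were Igfbp5, a secreted IGF-binding protein (0.36), Trp53, which encodes p53 itself (0.20), Hmgb2, a chromatin protein (0.41), and Spp1, osteopontin (0.25, and 0.12 without control library 2 and 0.15 without treated library 3), each with an adjusted p of 0.734. The sign for Trp53 and Spp1 turned under other scalings. Cdkn2a, the classical senescence inhibitor locus, stood at 0.32, 0.09, 0 and 0 TPM in the control libraries and at 0.12, 0, 0.23 and 0.14 TPM in the treated ones. Il6, an inflammatory cytokine of that phenotype, was listed at 0 in all control libraries and reached 0.10 TPM in 1 treated library. Cdkn2a and Il6 are list members under the tested level and were chosen after their values were seen.

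The gene that fell, Gm47551, is a short annotated RNA (chr13:98801172-98803736, plus strand) inside the span of Fcho2, an endocytosis gene on the opposite strand. Gm47551 stood at 68.1, 16.7, 12.4 and 27.5 TPM in the control libraries and at 0, 0, 0 and 1.47 TPM in the treated ones. All treated libraries were below all control libraries. The log2 difference was -4.38 (SE 0.55, adjusted p 0.015), and it depends on the pseudocount because 3 libraries are listed at 0. The call was lost after median-of-ratios, quantile and median-centred scaling, without the filter on low genes and with the replicate block. It was also lost in the fit of the 8 compared libraries alone, and when control library 4 or treated library 1, 2 or 3 was left out. Against aged/doxo, where Gm47551 stood at 14.5 to 58.1 TPM, the difference was -4.74 (adjusted p 0.0127). Fcho2 stood at 2.70 to 3.84 TPM in the control and 2.43 to 4.18 TPM in the treated libraries, so the ranges overlapped, and it was added after its values were seen as the gene that Gm47551 overlaps. Whether the library kit kept the strand is not stated, so reads of Gm47551 and Fcho2 cannot be told apart by strand.

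No gene with an established symbol fell at the adjusted threshold, and 11 of the 15 lower genes with the smallest p were Mup genes or Mup pseudogenes of the cluster on chromosome 4. The adjusted p was 0.734 for each of the 15. Mup1 stood at 9771, 4673, 6741 and 4274 TPM in the control libraries and at 3736, 2146, 2537 and 3651 TPM in the treated ones, without overlap (log2 difference -1.04, SE 0.27). Mup14 stood at 29521, 19312, 24111 and 17264 TPM against 16397, 9357, 14641 and 15476 TPM, again without overlap (-0.69, SE 0.22). Mup17 ran from 3953 to 12218 TPM in the control and from 1155 to 4628 TPM in the treated libraries, and its groups overlapped (-1.50, SE 0.45). Mup12 and Mup16 differed by -1.10 and -1.04 without overlap, and Mup11 and Mup15 by -0.81 and -1.35 with overlap.

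Of 34 Mup genes and pseudogenes tested, 33 had a difference below 0. At an unadjusted p under 0.05, 20 of the 34 were lower and 0 higher, against 0.662% and 2.74% of all genes. Their median was -0.78, beside 0.23 for all genes, and without young control library 1 the difference of Mup1 was -0.80. All Mup genes in the table together, 49 of them, held 26.6%, 16.2%, 20.6% and 15% of all TPM in the control libraries and 15.2%, 9.38%, 12.8% and 12.97% in the treated ones. The groups met only where treated library 1 exceeded control library 4. The mean share was 19.6% ± 5.26 (SD, n = 4) against 12.6% ± 2.40 (SD, n = 4), a difference of -7.01 percentage points (exact two-sided permutation test over 70 divisions, p = 0.0571, adjusted over the 2 shares tested 0.114), where the smallest p possible is 0.0286. Leaving out 1 library at a time gave -8.54 to -4.67 points. The aged/doxo libraries had a mean share of 12% ± 2.20 (SD, n = 4). Reads of near-identical copies can be split between them by the estimator, so values of single copies are uncertain and not independent of each other. The counts of Mup genes here, among the 15 lower genes and in the male-biased list may therefore repeat 1 signal. For that reason the sum over copies is given beside them. The longest stretch common to at least 8 of the 14 Mup promoter windows in RefSeq is printed, with no letters marked. This stretch shows likeness of promoters only, and not of the transcripts that the reads come from. It is 68 bases long and is found in 8 (Mup2, Mup9, Mup11, Mup14, Mup15, Mup17, Mup18 and Mup19) and in 0 of the other windows:
Mup: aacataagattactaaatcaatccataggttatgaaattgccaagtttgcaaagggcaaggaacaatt

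**Figure D3:**
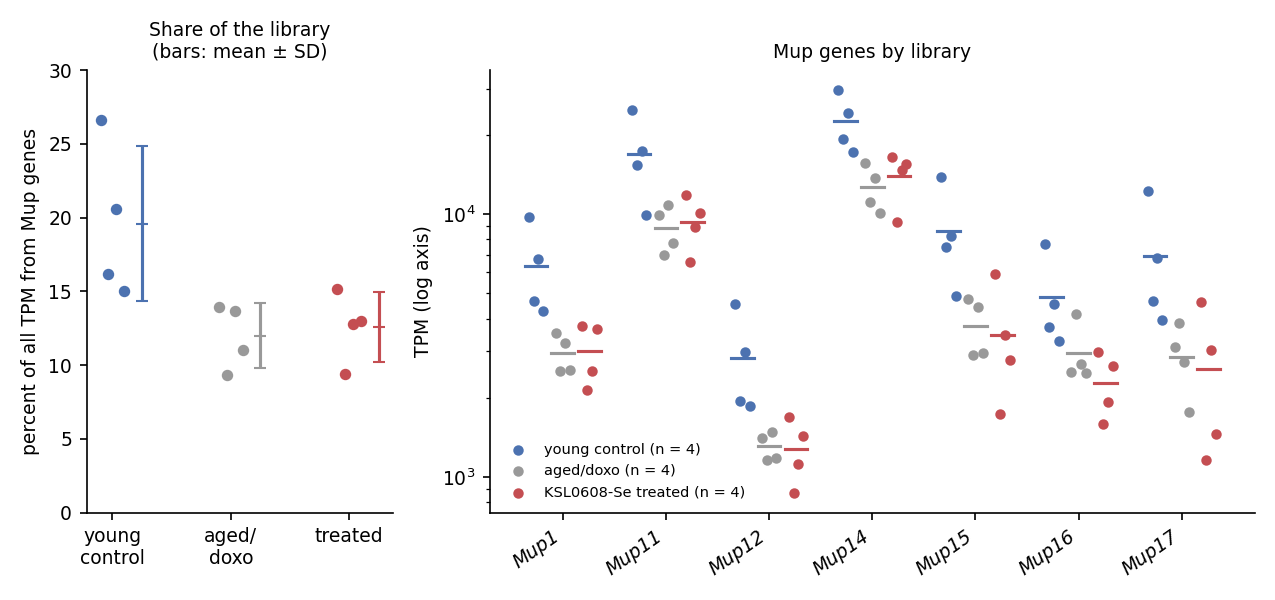
Left, percent of all TPM from Mup genes in each library with mean ± SD, 4 libraries per group. Right, TPM of 7 Mup genes on a log axis with 1 point per library and a line at the group mean; the treated means are below the control means in each of these genes, and young control library 1 is the highest control library in each.

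The list of male-biased liver genes, in which 20 of 38 tested members are Mup genes, had 0 members at the adjusted threshold, 14 lower at an unadjusted p under 0.05 and 0 higher, against 0.662% and 2.74% of all genes, with a median of -0.51. The Mup members held 12 of the 14. Among the other 18 members 2 were lower at that level, and their median was -0.15. Without young control library 1 the list held 9 lower members, against 0.515% of all genes.

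Of 13 tested growth hormone and STAT5 genes 7 had a difference above 0 and 6 below 0, with a median of 0.17 beside 0.23 for all genes. The list holds feedback inhibitors of growth hormone signalling as well as genes that growth hormone holds down, so its signs cannot be read as 1 direction. Igfbp1, also on this list, is given with the fasting genes below. Socs2, the feedback inhibitor of growth hormone signalling, stood at 9, 4.75, 5.81 and 0.96 TPM in the control libraries and 1.07, 1.09, 1.73 and 1.78 TPM in the treated ones. Its first 3 control libraries were above all treated ones and the fourth was below them (log2 difference -1.14, adjusted p 0.734). Cish, another such inhibitor, stood at 2.74, 13.4, 7.28 and 0.31 TPM against 0.20, 0.40, 0.44 and 5.68 TPM (-1.29, adjusted p 0.734, and -0.78 without control library 2). Bcl6, a repressor that growth hormone holds down, stood at 0.78, 6.25, 1.14 and 12.6 TPM against 12.7, 15.2, 18.0 and 6.38 TPM (1.59, adjusted p 0.734). Of 13 tested members 2 were higher and 1 was lower at an unadjusted p under 0.05 (2.74% and 0.662% of all genes), and without young control library 1 the counts were 0 and 1.

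Detoxification genes controlled by NRF2 gave the next largest count on the higher side. Of 35 listed NRF2 targets 32 were tested, 0 passed, 8 were higher at an unadjusted p under 0.05 and 0 were lower, against 2.74% and 0.662% of all genes, with a median of 0.45. In 10 of them all treated libraries lay above all control libraries, against 3.66% of all genes, and after median centring in 5, against 156 of all 10883. The number higher at an unadjusted p under 0.05 was 3 without young control library 1 (1.21% of all genes) and 4 after median-of-ratios scaling (1.48% of all genes). In the fit of the 8 compared libraries alone it was 16 (4.81% of all genes), and 1 member was then lower (0.864% of all genes). Of the 32 tested NRF2 targets 30 had a difference above 0 and 2 below 0, the lowest at -0.71. Gsta1, an alpha-class glutathione S-transferase, stood at 3.79, 1.22, 4.30 and 5.04 TPM in the control and at 14.9, 13.5, 9.09 and 6.84 TPM in the treated libraries, without overlap (log2 difference 1.44, SE 0.31, adjusted p 0.584). Gstm3, a mu-class member, stood at 28.7, 50.8, 39.7 and 44.6 TPM against 109, 80.1, 75.8 and 78.4 TPM, also without overlap (1.06, SE 0.25, adjusted p 0.684). Aox1, aldehyde oxidase, ran from 12.95 to 24.8 TPM against 30.1 to 33.3 TPM (0.71), and Ephx1, microsomal epoxide hydrolase, from 117.5 to 246.9 TPM against 307 to 456 TPM (0.90).

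Among 22 glutathione S-transferase genes, which convey glutathione onto reactive molecules and of which many are NRF2 targets too, 5 were higher and 1 was lower at an unadjusted p under 0.05, against 2.74% and 0.662% of all genes. The higher count was 2 without young control library 1 (1.21% of all genes) or after median-of-ratios scaling (1.48%). The fit of the 8 libraries alone gave 10 higher (4.81%) and 2 lower (0.864%). In the fit of all 12 libraries the lower one was Gstp1, the abundant pi-class enzyme. Gstp1 stood at 5889, 7496, 5948 and 4311 TPM in the control and 3784, 3843, 2714 and 5149 TPM in the treated libraries. Treated library 4 lay within the control range (-0.62, adjusted p 0.734). Gstp3, of the same class, differed by 0.61 in the other direction, at 17.9 to 29.7 TPM against 27.0 to 40.1 TPM. Of 27 drug-metabolizing P450 genes and their receptors, 4 were higher at that level (2.74% of all genes), namely Ahr, the dioxin receptor (0.63), Cyp3a59 (0.67), Cyp2c38 (0.61) and Cyp2c54 (0.38), and without young control library 1 the count was 0 (1.21% of all genes) and the difference of Cyp3a59 was 0.41. Of 19 selenoprotein genes, enzymes that carry selenocysteine, none passed in limma's fit, where 0 were higher and 0 lower at an unadjusted p under 0.05, with a median of 0.28, and median-of-ratios scaling gave 1 lower.

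Of 23 tested genes of gluconeogenesis and fasting, 22 had a difference above 0 and 0 passed, with a median of 0.47 beside 0.23 for all genes. Igfbp1, a secreted IGF-binding protein that insulin suppresses, stood at 1.34, 6.90, 7.04 and 3.02 TPM in the control and at 8.85, 31.7, 11.8 and 20.7 TPM in the treated libraries, without overlap (log2 difference 1.81, SE 0.65, adjusted p 0.734). G6pc, the glucose-releasing phosphatase, stood at 45.6 to 135.9 TPM against 107 to 213 TPM (0.99), and Pck1, which commits carbon to gluconeogenesis, at 90.1 to 295 TPM against 256 to 495 TPM (0.99). Pdk4, which spares glucose by blocking pyruvate oxidation, stood at 0.82, 2.24, 2.29 and 7.25 TPM against 5.35, 6.06, 6.15 and 6.95 TPM (1.00). Control library 4 was the highest control library for Pdk4, G6pc and Pck1. At an unadjusted p under 0.05 the list held 5 of 23 beside 2.74% of all genes, 1 without young control library 1 (1.21% of all genes) and 1 with length slope as a covariate (2.36%).

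Lipid genes gave smaller counts. Of 29 lipogenesis genes 3 were higher at an unadjusted p under 0.05, against 2.74% of all genes. These were the phosphatidate phosphatases Lpin2 (log2 difference 0.66) and Lpin1 (0.73) and the elongase Elovl6 (0.54). Without young control library 1 the count was 0, against 1.21% of all genes, and Lpin1 and Elovl6 differed by 0.49 and 0.35. Scd1, the stearoyl-CoA desaturase, ran from 332 to 2389 TPM in the control and from 2033 to 2829 TPM in the treated libraries (1.11, adjusted p 0.734), and its difference was 0.55 without young control library 1. Of 29 cholesterol genes 2 were higher at that level, against 2.74% of all genes, and these were Abcg5 and Abcg8, the partners of the pump that exports sterols into bile. Abcg5 stood at 9.40 to 23.8 TPM against 21.9 to 38.0 TPM (0.82), and Abcg8 at 7.34 to 24.5 TPM against 17.4 to 36.6 TPM (0.87), with overlap in both. Lss and Hsd17b7, enzymes of cholesterol synthesis, differed by 0.47 and 0.54, and by 0.30 and 0.32 without young control library 1.

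Of 15 tested circadian clock genes, 0 passed and 4, mostly outputs and repressors of the clock, were higher at an unadjusted p under 0.05, against 2.74% of all genes. Nr1d1, the clock repressor REV-ERB alpha, stood at 4.31, 7.68, 7.83 and 7.76 TPM in the control and at 10.0, 40.4, 17.4 and 21.2 TPM in the treated libraries, without overlap (1.43, SE 0.46, adjusted p 0.734). Dbp, a clock-driven activator, stood at 0.45 to 0.66 TPM against 0.97 to 9.06 TPM (1.17), and treated library 2 was the highest of all in Dbp as in Nr1d1. Without that library the difference of Dbp was 0.67. Nr1d2 (0.83) and Tef (0.66) overlapped between the groups. The labels used here give no hour of tissue collection.

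**Figure D4:**
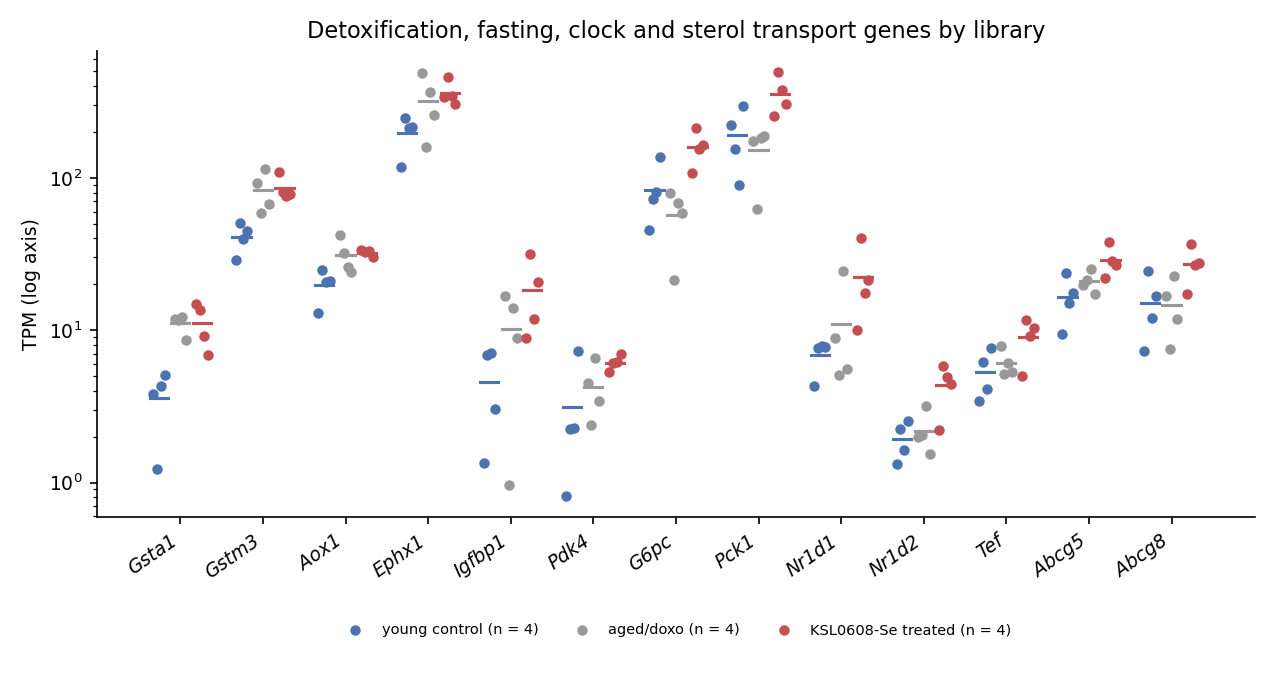
Levels in TPM on a log axis of detoxification genes (Gsta1 to Ephx1), fasting genes (Igfbp1 to Pck1), clock genes (Nr1d1, Nr1d2, Tef) and sterol transporters (Abcg5, Abcg8), with 1 point per library and a line at each group mean, 4 libraries per group. Treated (red) and control (blue) libraries do not overlap in Gsta1, Gstm3, Aox1, Ephx1, Igfbp1 and Nr1d1, and overlap in the others.

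The other genes of smallest p in the higher direction were varied in role, and none passed. Cplane1, a ciliogenesis gene, stood at 0.44 to 1.14 TPM in the control and 2.44 to 6.91 TPM in the treated libraries (1.55, adjusted p 0.546). Mgmt, which removes alkyl groups from guanine in DNA, stood at 4.20 to 5.90 TPM against 7.04 to 9.93 TPM (0.76, adjusted p 0.684). Mbl2, mannose-binding lectin of the complement system, stood at 213 to 295 TPM against 475 to 698 TPM (1.25, adjusted p 0.734). These 3 did not overlap between the groups, and neither did Atp8b5 (1.11), Wdr27 (1.13) and Tmem43 (0.79). Tmigd1, an immunoglobulin-domain membrane protein, overlapped between the groups, with treated library 4 at 0.61 TPM beside 2.44 to 2.99 TPM in the other treated libraries (1.11). The pseudogene Ptges3-ps was listed at 0 in every control library, while its treated values were 0, 5.99, 5.46 and 10.6 TPM.

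In the lower direction, outside the Mup cluster, Snhg9, a host RNA of small nucleolar RNA, stood at 8.16, 6.03, 4.64 and 5.06 TPM in the control libraries, while the treated values were 0, 0, 5.22 and 0 TPM. Adh6-ps1, an alcohol dehydrogenase pseudogene, stood at 12.1 to 19.1 TPM against 8.12 to 10.5 TPM, without overlap (-0.70). Serpina4-ps1 (-1.55) and Atp5g2, a subunit c gene of mitochondrial ATP synthase (-0.60), overlapped between the groups. The 13 protein genes of the mitochondrial genome held 9.71% ± 1.79 (SD, n = 4) of all TPM in the control and 10.0% ± 1.32 (SD, n = 4) in the treated libraries, a difference of 0.307 points (exact two-sided permutation test, p = 0.743, adjusted over the 2 shares 0.743). Its sign turned when control library 2 or treated library 2 was left out.

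Markers of other liver cells were set side by side, although in whole tissue fewer cells of a type and less RNA per cell cannot be told apart. Of 19 endothelial markers 4 were higher at an unadjusted p under 0.05 (21.1%, against 2.74% of all genes), Ptprb (log2 difference 0.77), Erg (0.55), Flt4 (0.55) and Eng (0.52). Of the 19 endothelial markers 18 had a difference above 0, with a median of 0.47 beside 0.23 for all genes. Their summed level was 72.4 to 143.6 TPM in the control and 108.6 to 191 TPM in the treated libraries, and the count was 2 without young control library 1 (1.21% of all genes), 1 after median centring (1.46%) and 9 with the replicate block (2.04%). Of 16 Kupffer cell and macrophage markers 0 reached that level in either direction, with summed levels of 221 to 391 TPM and 228 to 347 TPM. Of 19 listed markers of T, B and NK cells 4 were tested, and of 11 neutrophil markers 2, with 0 at an unadjusted p under 0.05. Of 23 pericentral genes 2 were higher (2.74% of all genes), Rgn, regucalcin, at 568 to 611 TPM against 785 to 953 TPM without overlap (0.56, adjusted p 0.734), and Ahr. The part of cell composition in the p53 and Mup values was not tested.

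**Figure D5:**
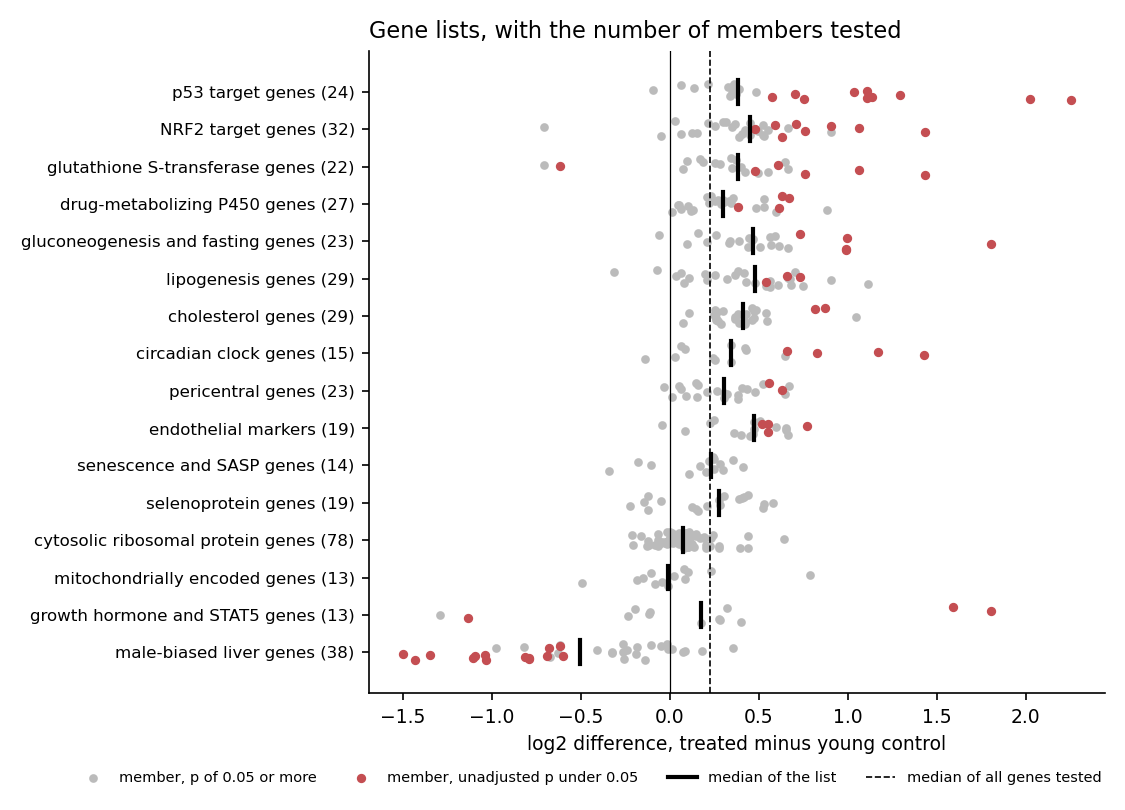
Log2 difference, treated minus young control, of each tested member of 16 gene lists, with members at an unadjusted p under 0.05 in red, the median of the list as a black bar and the median of all genes tested, 0.23, as a dashed line. The male-biased list has its median at -0.51, and the medians of the p53, NRF2, fasting and endothelial lists are at 0.38, 0.45, 0.47 and 0.47.

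The treated libraries were next set beside the aged/doxo libraries, which share doxo in their description. Treated minus aged/doxo, Phlda3 differed by 0.17 (adjusted p 0.717), Cdkn1a by 0.19 (0.744) and Aen by 0.30 (0.427), and none of these passed. The 95% interval of the treated minus aged/doxo difference was -0.47 to 0.80 for Phlda3, -0.60 to 0.98 for Cdkn1a and -0.11 to 0.70 for Aen. Mup1 differed by 0.00 (adjusted p 0.994), with an interval of -0.58 to 0.59. Gm47551 was the gene named here that differed in both contrasts, as given above. The contrasts share the treated libraries, so they are not independent of each other.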

How the data were processed

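Total RNA of mouse liver was sequenced in 12 libraries, 4 in each of 3 groups, and the comparison uses 8 of them. The authors deposited TPM for 55903 genes, processed with fastp, HISAT and RSEM as listed without versions in the submitters' processing notes. Their build and gene annotation are not given in the labels used here. Depth cannot be recovered from TPM, so no counting error can be given. Positions were matched by gene identifier to GENCODE M21 on GRCm38, which held 55141 of 55487 Ensembl identifiers, and promoter windows are from RefSeq on GRCm38.p6.

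Genes with a mean of at least 1 TPM were analysed as log2(TPM + 1). On this scale the difference of a low gene is smaller than its fold of TPM. A linear model of group was fitted to all 12 libraries with limma 3.58.1 (R 4.3.3), with an intensity trend in the variance, so the 3 groups share 1 estimate of the spread. Tests are two-sided and adjusted by Benjamini-Hochberg over all 10883 genes, with a threshold of 0.05. Shares of TPM were compared by exact permutation tests in Python 3.11.15 with scipy 1.17.1. The alternatives were other pseudocounts and filters, 4 scalings, the 8 libraries alone, robust variances, array weights, a length covariate, a replicate block and leaving out each library.

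The genes and lists were chosen with earlier results of these data known, and no list was tested as a set. Named genes are the 15 of smallest p in each direction with an established symbol, the genes past the threshold, up to 4 of smallest p in each list described, and the p53 targets. Others are said to be chosen after their values were seen.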

Additional observations from a re-analysis of the deposited data

Results flagged for a closer look

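In 7 of the 161 groups of 4 libraries examined, over 79 named genes, 1 library lay far from the other 3 of its group, and chance alone gives this in about 1 group of 20. Treated library 4 accounts for 4 of the 7. Tmigd1 stood at 0.61 TPM there against 2.44 to 2.99 TPM in the other treated libraries. Gm47551 stood at 1.47 TPM there and was listed at 0 in the other treated libraries. Cish stood at 5.68 TPM there against 0.20 to 0.44 TPM, and Aox1 at 30.09 TPM against 32.82 to 33.34 TPM. Gstm3 stood at 109.11 TPM in treated library 1 against 75.83 to 80.10 TPM in the others. Snhg9 stood at 5.22 TPM in treated library 3 and was listed at 0 in the others. Nr1d1 stood at 4.31 TPM in young control library 1 against 7.68 to 7.83 TPM in the other control libraries.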

How the results depend on the processing

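The number of genes that rose, 2 as reported, was 1 without the filter on low genes, with a minimum mean of 5 TPM, in the fit of the 8 compared libraries alone, with the replicate block and with length slope as a covariate. It was 4 with a total that left out the 50 most abundant and mitochondrial genes, 22 with array quality weights, and 1 to 4 when 1 library was left out, with 4 without aged/doxo library 2. The number that fell, 1 as reported, was 0 without the filter, with median-of-ratios, quantile or median-centred scaling, in the fit of the 8 libraries and with the replicate block, 7 with array quality weights, 2 when aged/doxo library 2 and young control library 1 were both left out, an alternative added after the data were seen, and 0 to 2 when 1 library was left out. Where 0 genes fell, 94 were lower at an unadjusted p under 0.05 in the fit of the 8 libraries and 69 with the block. Without control library 4 or without treated library 3 the number was 1, but the gene was not Gm47551. Genes whose groups do not overlap numbered 156 above and 188 below after median centring, and 439 to 1534 above and 57 to 107 below when 1 library was left out, which loosens the condition. Gm45941 passed in every alternative run. The difference in mitochondrial share ran from -0.284 to 1.15 points when 1 library was left out, with -0.251 without control library 2 and -0.284 without treated library 2. The difference of Plk3 ran from -0.33 to 0.27 when 1 library was left out, and was above 0 without control library 2 and without treated library 1. Trp53 turned to -0.069 with median-of-ratios, -0.040 with quantile and -0.046 with median-centred scaling, and Spp1 to -0.037 with median-of-ratios scaling and -7.1e-05 with median centring. The causes were not tested. Deviations of same-numbered control and treated libraries correlated at 0.39, 0.06, 0.04 and -0.03. Control library 1 correlated most with treated library 1, but control libraries 2, 3 and 4 did so with treated libraries 4, 2 and 3. With the block 222 genes were higher and 69 lower at an unadjusted p under 0.05. Array weights gave 2104 higher and 222 lower. Depth is unknown, so no limit from counting can be given.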

Other observations

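Other groups of liver genes that the comparison covers held 0 to 2 members past an unadjusted p of 0.05, beside 2.74% of all genes higher and 0.662% lower. Of 78 cytosolic ribosomal protein genes 0 were at that level in either direction in limma's fit, with a median log2 difference of 0.07. Of 31 proteasome genes, which degrade tagged proteins, 0 were at that level too. All 31 proteasome differences were above 0, with a median of 0.25 beside 0.23 for all genes tested. After median-of-ratios scaling the proteasome median was -0.03, beside -0.01 for all genes. Of 72 nuclear genes of the respiratory chain 1 was lower. Of 30 interferon-stimulated genes, 26 acute phase genes and 22 antigen presentation genes 0 were at that level, with medians of 0.27, 0.21 and 0.09 beside 0.23 for all genes tested. Of 22 genes of the unfolded protein and integrated stress responses 2 were higher, and of 20 cytosolic heat shock genes 0.

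Other lists of hepatocyte function held 0 to 2 members at that level, against 2.74% of all genes higher. Of 38 genes of PPARA and fatty acid oxidation 1 was higher, of 20 bile acid genes 2, of 28 conjugation and carboxylesterase genes 1, and of 22 periportal genes 1, each at an unadjusted p under 0.05 with 0 lower. Their medians were 0.38, 0.37, 0.36 and 0.28 in that order. Of 18 apolipoprotein genes 0 were at that level, with a median of 0.10. Of 8 tested female-biased liver genes 1 was higher and 0 were lower, with a median of 0.29.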
